A study of Mus musculus with 294 samples.

Results

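Srebf1, Srebf2, Insig1, Mlxipl and Stard4 are 5 genes that set or sense the lipid supply of the hepatocyte. They were taken by name, and their array probes were found through the gene symbols of the platform annotation, which gave 5 of the 16643 genes that could be measured here. The livers came from 294 mice of the F2 generation of a B6/J by A/J cross, both inbred mouse strains, with 1 array for each liver. The labels put all animals in 1 group and give no treatment, age, diet or sex, so the comparison that the design allows is between animals: whether livers with more of a regulator's mRNA also had more mRNA of the synthesis genes it is known to control. F2 animals differ from each other in which alleles of the parent strains they carry at each locus, but no genotypes were analysed here.

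Cholesterol and fatty acid synthesis in liver are governed by membrane-bound factors of the SREBP family. The SREBP precursors are held in the endoplasmic reticulum by Scap and an Insig protein when sterols are plentiful. When sterols run low, the complex moves to the Golgi, where proteases release the active factor. Srebf2 encodes SREBP-2, which drives cholesterol synthesis and uptake, and Srebf1 encodes SREBP-1, whose 1c form drives fatty acid synthesis in liver and responds to insulin and to the oxysterol receptor LXR. Insig1 is both a brake on the pathway and one of its targets. Mlxipl encodes ChREBP, which responds to glucose and switches on glycolytic and lipogenic genes. Stard4 is a small sterol transfer protein of the cytosol whose gene is a known SREBP-2 target. The arrays measure mRNA only, and neither the cleavage of the SREBPs nor the entry of ChREBP into the nucleus was measured.

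The Stard4 promoter is not described here. The DNA just before the transcription starts is shown for the other 4 members, since the elements through which these factors act lie there. Each is the 250 bases before a RefSeq start in GRCm38.p6, 5′ to 3′ on the gene's strand. Capitals mark matches on either strand to TCACNCCA, the core of a sterol regulatory element, to CCAAT, the NF-Y box, to CACGTG, an E-box, and to GGGCGG, an Sp1-type GC box. The Srebf2 window lies at chr15:82147019-82147268 on the plus strand. The Insig1 window lies at chr5:28071162-28071411 on the plus strand. RefSeq lists 3 starts for Srebf1 and 2 for Mlxipl. The Srebf1 window shown belongs to the start farthest downstream, chr11:60210472-60210721 on the minus strand, and the Mlxipl window to the upstream start, chr5:135089640-135089889 on the plus strand.
Srebf2: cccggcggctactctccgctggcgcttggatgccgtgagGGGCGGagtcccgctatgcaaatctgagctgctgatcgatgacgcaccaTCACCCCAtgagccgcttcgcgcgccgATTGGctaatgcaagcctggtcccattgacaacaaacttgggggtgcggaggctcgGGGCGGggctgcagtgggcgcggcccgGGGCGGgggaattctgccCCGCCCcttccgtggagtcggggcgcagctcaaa
Insig1: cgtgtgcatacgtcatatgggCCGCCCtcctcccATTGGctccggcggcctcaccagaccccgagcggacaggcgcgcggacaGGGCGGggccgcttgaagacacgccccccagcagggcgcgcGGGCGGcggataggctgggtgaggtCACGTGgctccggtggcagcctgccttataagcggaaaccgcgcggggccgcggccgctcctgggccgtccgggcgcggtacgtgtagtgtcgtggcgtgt
Srebf1: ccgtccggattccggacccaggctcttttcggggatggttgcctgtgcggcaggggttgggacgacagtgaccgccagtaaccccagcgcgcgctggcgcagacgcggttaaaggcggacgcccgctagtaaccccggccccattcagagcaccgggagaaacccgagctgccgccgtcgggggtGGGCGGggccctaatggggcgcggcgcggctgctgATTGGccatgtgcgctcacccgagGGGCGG
Mlxipl: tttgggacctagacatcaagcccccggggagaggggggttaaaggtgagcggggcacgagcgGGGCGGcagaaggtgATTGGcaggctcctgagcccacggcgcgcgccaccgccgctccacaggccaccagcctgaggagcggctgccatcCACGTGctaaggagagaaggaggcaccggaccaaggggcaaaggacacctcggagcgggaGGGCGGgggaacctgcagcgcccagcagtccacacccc

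The Srebf2 window held the sterol element core, written TCACCCCA, with a CCAAT box in reverse and 4 GC boxes around it. Insig1 had no match to the core in this window but held a reversed CCAAT box, an E-box and 3 GC boxes. The printed Srebf1 window held a reversed CCAAT box and 2 GC boxes, and the printed Mlxipl window held a reversed CCAAT box, an E-box and 2 GC boxes. The downstream Mlxipl start had the core as TCACACCA. Of all 32851 RefSeq promoter windows of this length, 3.67% held TCACNCCA, 33.8% CCAAT, 6.02% CACGTG and 32.7% GGGCGG. Among cholesterol synthesis genes measured here with a window, 14 of 14 held CCAAT and 13 held GGGCGG, while 2 held TCACNCCA. Among all 13257 measured genes with a window, 39.4% held CCAAT, 54.9% GGGCGG and 4.08% TCACNCCA. The motifs were chosen with these sequences in view, and a match is a description of the letters, not of a bound site.

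The values are array intensities on a linear scale, which were turned into log2 values here, so 1 unit is a doubling. Array medians lay between 21.1 and 23.2. The arrays were alike, with a median correlation of 0.990 and a lowest of 0.973 for a single array against the rest. Hepatocyte markers were bright, with gene means of 11.8 to 14.5 on the log2 scale. The Y-linked genes Eif2s3y, Kdm5d and Uty split the animals, with 148 below an empty gap from 2.62 to 5.76 in their mean log2 value and the rest above it. The side of this gap is a grouping made from the data, and it went into every fit, because 30.3% of genes were higher and 24.8% lower above it at an adjusted p under 0.05 (limma, Benjamini-Hochberg over 16643 genes). Later counts of list genes as higher, lower, positive or negative are of those past this threshold. The first 3 digits of the animal number in the titles form 15 blocks, each of 17 to 23 livers; no label says what a block is. A set of 15 arrays correlated least with the rest, and 39 animals had high levels of pancreas or muscle markers; where leaving either set out ended a call on a pair of members, the value is given. The labels number each sample as an F2 individual and, beyond the cross, say nothing of its origin. Each array was taken as 1 independent animal, so p-values rest on the spread between animals. Any family relation between animals was not modelled.

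Srebf1 was the most variable of the members. Its log2 intensity ran from 8.21 to 11.95 with a median of 11.14, and its mean was 11.06 ± 0.505 (SD, n = 294). Animals at the 90th percentile had 2.18 times the Srebf1 intensity of those at the 10th. The SD was 2.78 times the median SD of genes of like brightness, and the tail was on the low side, with 1 liver far below all others. Above the gap the values ran from 8.21 through a median of 10.88 to 11.86, and below it from 9.82 through 11.35 to 11.95. The 2 sides overlapped, but 6.16% of animals above the gap exceeded the median of those below. The difference was -0.53 ± 0.050 (SE), with an adjusted p of 6.41e-21 by limma.

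Srebf2 varied about as much as genes of like brightness. Its log2 intensity ran from 5.97 to 7.23 with a median of 6.55, a mean of 6.56 ± 0.191 (SD, n = 294) and a 1.38-fold span from the 10th to the 90th percentile. That SD was 0.961 times the median SD of genes of like brightness. Above the gap the median was 6.56 and below it 6.54, and the sides overlapped almost wholly. The difference of 0.03 did not pass the test (limma adjusted p = 0.248).

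Insig1 ranged from 7.501 to 9.97 with a median of 9.07 and a mean of 9.04 ± 0.322 (SD, n = 294). Its SD was 1.71 times that of genes of like brightness. Values above the gap ran from 8.12 through 9.10 to 9.71, and values below it from 7.501 through 8.995 to 9.97, so the lowest and the highest livers both lay below it. The difference above minus below was 0.11 with an adjusted p of 0.00683 (limma).

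Mlxipl ranged from 8.52 to 10.24 with a median of 9.54 and a mean of 9.55 ± 0.227 (SD, n = 294). Above the gap its values ran from 8.52 through 9.499 to 10.05, and below it from 8.98 through 9.60 to 10.24. Like Srebf1, it was lower above the gap, by a much smaller difference of -0.13 (limma adjusted p = 1.27e-06), and the sides overlapped over most of their range. Its 3 lowest animals were all in 1 label block, above the gap and among the 15 least correlated arrays.

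Stard4 was measured by 3 probes, which moved together over the animals, with r within sides of 0.952, 0.816 and 0.882. The brightest probe stands for the gene. It ranged from 8.33 to 10.17 with a median of 9.504 and a mean of 9.48 ± 0.314 (SD, n = 294). Stard4 was higher above the gap, where it ran from 8.51 through 9.64 to 10.17, than below it, where it ran from 8.33 through 9.37 to 9.95. Of the animals above the gap, 86.3% exceeded the median of those below, and the difference was 0.24 (limma adjusted p = 6.56e-11). The other 4 members had 1 probe each, so no agreement between probes could be checked for them. Which transcript forms the Srebf1 and Mlxipl probes read could not be checked either. The Srebf1 values therefore cannot be assigned to the 1c form. Probes differ in brightness, so levels were not ranked between genes.

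**Figure D1:**
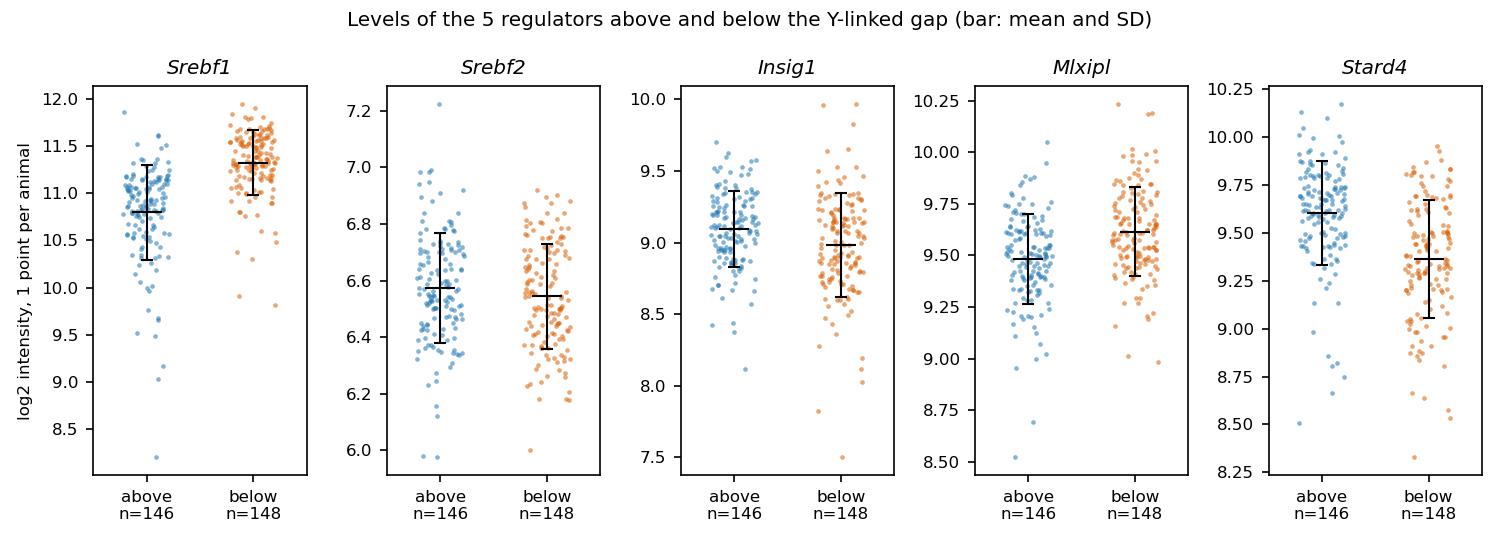
Log2 intensity of the 5 regulators in each of 294 livers (points), above and below (n = 148) the gap in Y-linked genes, with mean and SD as bars. Srebf1 lay lower above the gap, at a mean of 10.80 against 11.32, Stard4 lay higher there, at 9.60 against 9.36, and Srebf2 overlapped almost wholly.

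Some of the pathway lists differed between the sides, and others were mixed. Counts are of genes with an adjusted p under 0.05 by limma, beside 30.3% of all genes higher and 24.8% lower above the gap. The mixed counts were not read as traits of their lists. Of 16 measured cholesterol synthesis genes, 13 were higher above the gap and 0 lower, with a median difference of 0.47, the direction of Stard4 and Insig1. Fatty acid synthesis genes were mixed, with 5 of 18 higher and 10 lower (median difference -0.09), ChREBP targets were even at 4 and 4 of 11, and sterol uptake and handling had 2 higher and 4 lower of 7. All 7 measured LXR targets were lower above the gap, the direction of Srebf1, itself a known LXR target. Markers of other cell types also moved with the side: 10 of 10 Kupffer cell markers, 7 of 8 endothelial and 7 of 8 stellate markers were lower above the gap. The summed log2 level of the Kupffer list, as a mean over its genes, ran from 7.20 to 10.34 above and from 7.91 to 11.06 below. In a bulk liver, fewer cells of a type and less RNA per cell cannot be told apart. The part of these cell markers in the side differences was not tested.

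The levels also differed between label blocks, as 38.4% of all genes did. Srebf1 (adjusted p = 1.03e-06), Stard4 (8.87e-07), Insig1 (0.00272) and Srebf2 (0.00966) passed the moderated F test of limma over the 15 blocks, and Mlxipl did not (0.138). Blocks took up 19.2% of the variance of Srebf1 within sides and 19.3% of that of Stard4. The same block was lowest for both, and the highest block for Srebf1 was at 1.57 times it. The Srebf2 result did not last without the 15 least correlated arrays (adjusted p = 0.0858).

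Among the pairs of members, those of Insig1 with Stard4 and with Srebf1 had the highest r. Relations are given as Pearson's r over values centred within sides, with Spearman's rho, permutation p-values within sides and an adjusted p from a limma fit over all genes. Insig1 and Stard4 had the highest r, 0.634 (rho = 0.575, permutation p = 1e-05 for each, the smallest that 100000 resamples can give; adjusted p = 2.16e-31). The relation was positive in 15 of 15 blocks and r was 0.608 without the 2 animals farthest from the median. Srebf1 and Insig1 came next, with r = 0.530 (rho = 0.464, permutation p = 1e-05 for each; adjusted p = 1.8e-20), also positive in 15 of 15 blocks.

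Srebf1 and Stard4 had r = 0.375 (rho = 0.266, permutation p = 1e-05 for each). Over all animals with no side term it came to 0.0967, since Srebf1 was lower and Stard4 higher above the gap. Srebf2 and Insig1 had r = 0.337 (rho = 0.327, permutation p = 1e-05 for each; adjusted p = 1.83e-07). Srebf2 and Stard4 had r = 0.172 (rho = 0.222, permutation p = 0.0032 and 0.00018), and the adjusted p of 0.0168 became 0.274 with the mean of all probes and 0.0633 without animals of high pancreas or muscle markers. The SREBP genes themselves had a low r. Srebf1 and Srebf2 had r = 0.148, with a permutation p of 0.012, while rho was 0.0935 with a permutation p of 0.11. The adjusted p of 0.0382 became 0.118 without the least correlated arrays, 0.117 without animals of high pancreas or muscle markers and 0.121 with label block as a term.

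Mlxipl stood apart. Its r with Srebf1 was 0.0653 within sides (rho = -0.0163, permutation p = 0.26 and 0.78; adjusted p = 0.450). Over all animals with no side term that r was 0.206 (limma adjusted p = 0.00126), where both genes were lower above the gap. With Srebf2 the r of Mlxipl within sides was negative, at -0.211 (rho = -0.164, permutation p = 0.00027 and 0.0048; adjusted p = 0.00239). The adjusted p of this pair was 0.132 without the least correlated arrays. The 3 livers lowest in Mlxipl, at 8.52, 8.69 and 8.95, had Srebf2 values of 6.99, 6.73 and 7.23, of which the first and last are the highest Srebf2 values of all animals. The r of Mlxipl and Insig1 was -0.157 (rho = -0.168, permutation p = 0.0068 and 0.004), and its adjusted p of 0.0369 became 0.0712 without the least correlated arrays, 0.124 without animals of high pancreas or muscle markers and 0.0645 with label block as a term. Mlxipl and Stard4 had r = 0.0697 with values centred within sides (rho = 0.0479, permutation p = 0.23 and 0.41). In all, 8 of 10 pairs passed, against 5 without those 15 arrays and 5 without the marker-high animals.

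Srebf1 was related to almost the whole fatty acid synthesis list. Of 18 measured genes, 17 had a positive slope on Srebf1 past the threshold and 0 a negative one, beside 17.1% of all other genes with a positive and 14% with a negative slope. The median r was 0.445, beside 0.0221 over all genes. Mid1ip1, an activator of acetyl-CoA carboxylase, had the highest r of the list, 0.660 (rho = 0.605, permutation p = 1e-05 for each). It was the gene of rank 3 among all 16642. Gpam, which starts glycerolipid synthesis, followed at 0.574, then Thrsp, a lipogenesis regulator, at 0.570 and Fasn, the fatty acid synthase, at 0.555. Acly, Slc25a1 and Acaca, which make and carboxylate cytosolic acetyl-CoA or export its precursor from mitochondria, stood at 0.533, 0.506 and 0.466. At the other end, Pnpla3 had r = 0.145, which did not pass without the least correlated arrays (adjusted p = 0.421), and Elovl6, an elongase, 0.0335, the only gene of the list that did not pass over all animals.

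For Fasn the slope was 0.80 ± 0.0694 (SE) log2 units per log2 unit of Srebf1, with an adjusted p of 7.69e-23 by limma (rho = 0.530, permutation p = 1e-05). It was positive in 15 of 15 blocks, with block r from 0.160 to 0.764, and r was 0.555 above and 0.562 below the gap. Without the 2 farthest animals r was 0.582. The list count lay between 13 and 17 over 12 alternatives. The side term mattered for Srebf1: without it, 5 of its 67 called relations with list genes had the opposite sign.

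Srebf1 was related to the cholesterol list as well. There 15 of 16 genes had a positive slope past the threshold, beside 17.1% of all other genes, with a median r of 0.373. The r ran from Fdft1 (squalene synthase) at 0.520 and Sc5d at 0.503 down to Tm7sf2 at 0.117, which did not pass. Of 7 LXR targets, 5 were positive, led by Lpcat3, a phospholipid acyltransferase, at 0.558 and the sterol half-transporters Abcg8 at 0.50 and Abcg5 at 0.483, while the efflux pump Abca1 was negative at -0.252. Insulin-repressed genes went the other way. Past the threshold, 5 of 7 had a negative slope, beside 14% of all other genes, and 0 a positive one. Among them were Pdk4 at -0.399, G6pc at -0.395, Igfbp1 at -0.394 and Pck1 at -0.212. Soat2, which esterifies cholesterol, was the highest of the sterol uptake and handling list at 0.459, where 4 of 7 were positive and 1, Osbp, negative.

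Among partners of the pathway, Ppargc1b, a coactivator of SREBP-1c, had r = 0.542 with Srebf1, and Scap, the SREBP escort, 0.423. Of 16 partner factors 2 were positive and 3 negative, beside 17.1% and 14% of all other genes. The list as a whole did not follow Srebf1. The LXR gene Nr1h3 had r = 0.0210 and did not pass. Over all genes above median brightness, Zfyve21 (0.696), Galt (0.696), Mid1ip1, Slc38a3 (0.639), Zfp467 (0.636) and Fgfrl1 (0.636) were the most like Srebf1, and Tsr1 (-0.696), Nifk (-0.597), Nedd4l (-0.584) and Eif1a (-0.583) the most opposed.

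Of the 8 pathway lists, cholesterol synthesis had the highest median r with Srebf2. In that list 15 of 16 genes had a positive slope past the threshold and 0 a negative one, beside 16.1% and 8.61% of all other genes. The median r was 0.410 beside -0.00890 over all genes. Mvd, mevalonate diphosphate decarboxylase, led with r = 0.537 (rho = 0.487, permutation p = 1e-05 for each), followed by Sqle, squalene epoxidase, at 0.496, Mvk, mevalonate kinase, at 0.476 and Hmgcs1, HMG-CoA synthase, at 0.474. Tm7sf2 at 0.178 and Sc5d at 0.132 were the lowest. Sc5d did not pass, nor did Tm7sf2 without animals of high pancreas or muscle markers (adjusted p = 0.0623). Per unit of Srebf2 the slopes were steep: 1.53 ± 0.140 (SE) for Mvd (limma adjusted p = 1.08e-19) and 2.65 ± 0.270 for Sqle. The span of Srebf2 itself was narrow, 1.38-fold from the 10th to the 90th percentile. The Mvd relation was positive in 15 of 15 blocks, from 0.0551 to 0.771, and r was 0.534 without the 2 farthest animals.

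The fatty acid list had a lower median r with Srebf2, 0.207. Of its 18 genes, 11 were positive past the threshold, beside 16.1% of all genes, and 0 negative. Gpam at 0.349 and Fasn at 0.343 led, while Thrsp (0.0347) and Elovl6 (-0.0489) were at the bottom. The LXR targets Abcg5 (-0.218), Abcg8 (-0.185) and Abca1 (-0.163) had negative slopes on Srebf2, the first 2 with the opposite sign to Srebf1. The genes most like Srebf2 were Mmab (0.565), Mvd, Sqle, Psmd3 (0.491), Chd1l (0.479) and Mvk. Mmab, an enzyme of cobalamin metabolism, shares a promoter region with Mvk and came before every gene of the cholesterol list. The lowest were Gpat4 (-0.435), Abca8a (-0.430), Ergic2 (-0.405) and Ugp2 (-0.403). Hepatocyte markers had 4 of 7 negative on Srebf2 and 0 positive (median r = -0.169). Endothelial markers had 4 of 8 negative and 1 positive, beside 8.61% and 16.1% of all genes. Stellate markers had 2 of 8 negative, lymphocyte and adipose markers 1 each, and the other marker lists 0 in either direction. The part of these cells in Srebf2's relations was not tested.

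With Srebf1, Srebf2 and Mlxipl in the same model, each factor had its own slope. Fatty acid genes had 17 of 18 positive slopes past the threshold on Srebf1, beside 17.3% of all genes, and 9 on Srebf2, beside 17.2%. Cholesterol genes had 13 of 16 positive slopes past the threshold on Srebf1 and 14 on Srebf2. On Mlxipl, 10 cholesterol genes had a negative slope past the threshold, beside 14.7% of all genes, and 0 a positive one.

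**Figure D2:**
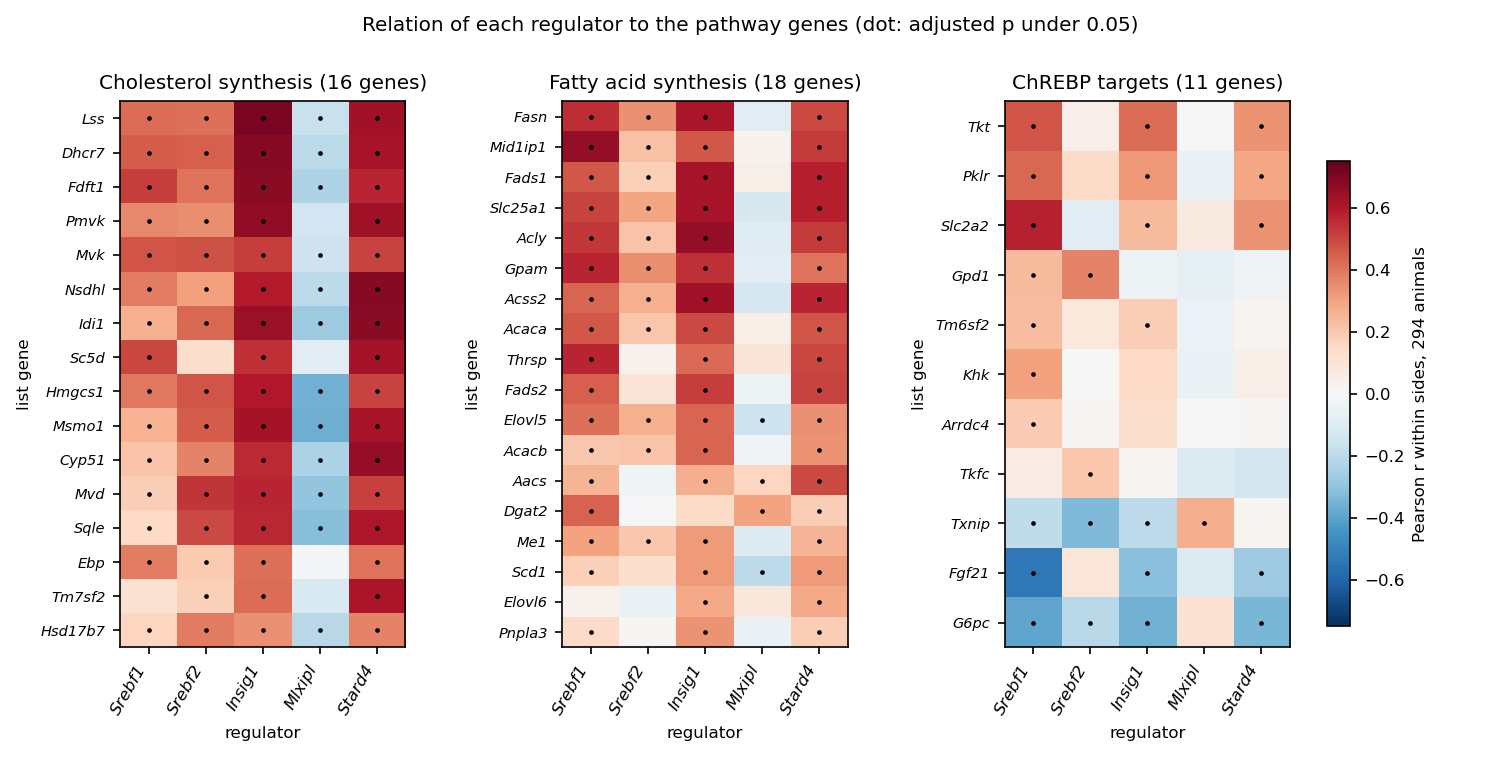
Pearson's r within sides (colour scale) between each regulator and the measured genes of 3 lists, over 294 animals, with a dot where the limma adjusted p was under 0.05. Insig1 and Stard4 carry dots on all 16 cholesterol genes, Srebf1 on 17 of 18 fatty acid genes, and Mlxipl on 1 of 11 ChREBP targets.

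Insig1 and Stard4 had the highest median r with the cholesterol list of the 5 members. For Insig1, 16 of 16 genes had a positive slope, beside 10.3% of all genes with a positive and 10% with a negative slope, and the median r was 0.584. Lss, lanosterol synthase, was the gene most like Insig1 of all 16642, with r = 0.710 (rho = 0.683, permutation p = 1e-05 for each). Dhcr7 (0.689), Fdft1 (0.679) and Pmvk (0.668) came next, and Ebp (0.410) and Hsd17b7 (0.343) were the lowest. The Lss slope was 0.87 ± 0.0505 (SE; limma adjusted p = 1.83e-42), and its r lay between 0.552 and 0.822 in the 15 blocks.

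Insig1 followed fatty acid synthesis too, with 17 of 18 genes positive, beside 10.3% of all genes, and a median r of 0.452. Acly (0.659), Acss2 (0.630), Fads1 (0.618) and Slc25a1 (0.616) led, and Dgat2 at 0.137 did not pass. Insig2, the paralogue that insulin represses, had r = -0.158 with Insig1 (adjusted p = 0.035). The genes most opposed to Insig1 were Retsat (-0.496), Acadvl (-0.474), Creb3l3 (-0.472) and Acadm (-0.458), of which Acadvl and Acadm carry out fatty acid oxidation.

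For Stard4, 16 of 16 cholesterol genes had a positive slope, beside 10% of all genes with a positive and 7.56% with a negative slope, and the median r was 0.615. Nsdhl, a sterol dehydrogenase, was the most like it of all genes, with r = 0.685 (rho = 0.599, permutation p = 1e-05 for each) and a slope of 1.53 ± 0.0949 (SE; limma adjusted p = 3.28e-38). Idi1 (0.677), Cyp51 (0.657) and Pmvk (0.638) followed, with Ebp (0.407) and Hsd17b7 (0.373) the lowest. Erg28, an endoplasmic reticulum scaffold of sterol enzymes, had r = 0.670. All 18 fatty acid genes had a positive slope past the threshold, led by Fads1, a desaturase, at 0.586. Rdh11 was the highest of the sterol uptake and handling list for both Stard4 (0.635) and Insig1 (0.628), while the lipoprotein receptors Scarb1 and Lrp1 had negative slopes on both.

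**Figure D3:**
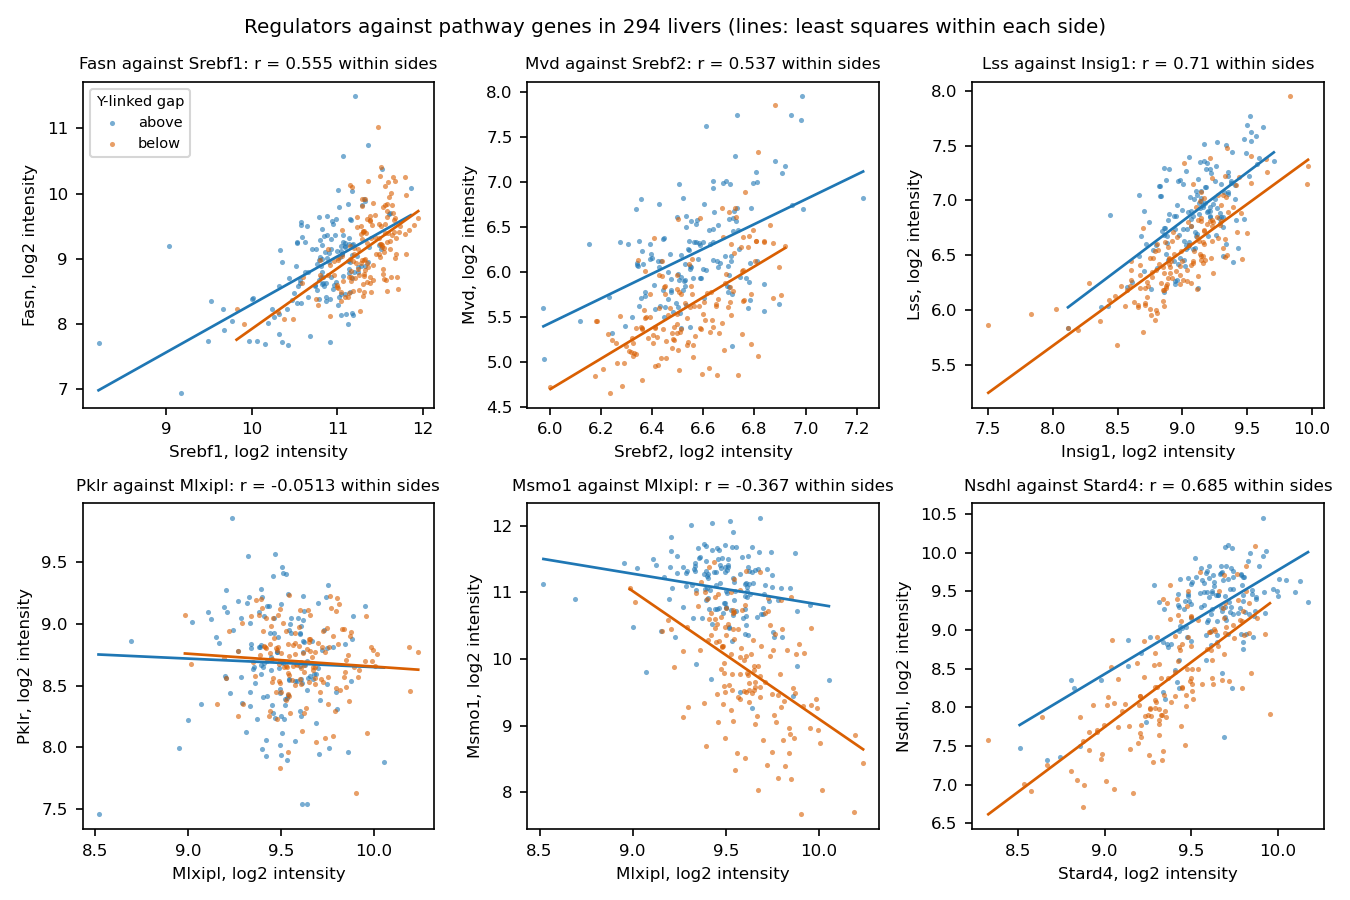
Log2 intensity of a pathway gene (vertical axis) against a regulator (horizontal axis) in 294 livers, coloured by side of the Y-linked gap, with a least squares line for each side. Fasn on Srebf1 (r = 0.555), Mvd on Srebf2 (0.537), Lss on Insig1 (0.710) and Nsdhl on Stard4 (0.685) slope upward on both sides, Msmo1 on Mlxipl slopes downward (-0.367), and Pklr on Mlxipl is flat (-0.0513).

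Most known ChREBP targets did not pass the test with Mlxipl. Of 11 measured ChREBP targets, 1 had a positive slope past the threshold and 0 a negative one, beside 14.1% of all genes with a positive and 12.8% with a negative slope. That gene was Txnip, a glucose-responsive inhibitor of thioredoxin, with r = 0.270 (rho = 0.220, permutation p = 1e-05 and 0.00015) and a slope of 0.62 ± 0.129 (SE; limma adjusted p = 4.08e-05). G6pc (0.108), Slc2a2 (0.0645) and Arrdc4 (0.00219) came after it. Pklr, liver pyruvate kinase and the classical ChREBP target, had r = -0.0513 (rho = -0.0919, permutation p = 0.39 and 0.12), and Tkfc (-0.0985) and Fgf21 (-0.103) were the lowest. The slope of Pklr was -0.09 ± 0.0979 (SE). Without the least correlated arrays 1 of the 11 genes was positive and 2 were negative past the threshold. On Srebf1, by contrast, 7 of these 11 genes were positive and 3 negative past the threshold, beside 17.1% and 14% of all genes. Slc2a2, the glucose transporter, stood at 0.575, Tkt, transketolase, at 0.473 and Pklr at 0.430. Fgf21 was at -0.538 (limma adjusted p = 2.98e-21), and G6pc, which is also on the insulin-repressed list, was negative too.

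Toward cholesterol synthesis, Mlxipl had the opposite sign to the other 4 members. All 16 genes had a negative slope, 12 of them past the threshold, beside 12.8% of all genes. The median r was -0.206 beside -0.0208 over all genes. Msmo1, a sterol methyl oxidase, had r = -0.367 (rho = -0.348, permutation p = 1e-05 for each; adjusted p = 5.02e-09). For Hmgcs1 r was -0.362 (rho = -0.370, permutation p = 1e-05 for each), negative in 15 of 15 blocks. Of 39 list relations called with Mlxipl, 33 passed with the same sign without the 15 least correlated arrays. Fatty acid genes were divided, with Dgat2 (0.304) and Aacs (0.159) positive, Elovl5 (-0.154) and Scd1 (-0.198) negative and 14 not past the threshold.

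Mlxipl did go with several partner factors. Of 16, 8 had a positive slope past the threshold, beside 14.1% of all genes. Only 1, Nfyb (-0.271), had a negative one, beside 12.8%. Ppargc1b led at 0.449, followed by Sp1 (0.298), the hepatocyte factor Hnf4a (0.295) and Usf2 (0.292). Mlx, the partner with which ChREBP binds DNA, had r = -0.0574 and did not pass. Irs2, an insulin receptor substrate, stood at 0.391 and Abcg8 at 0.365. Kupffer and neutrophil markers moved against Mlxipl. A negative slope past the threshold was seen for 9 of 10 Kupffer markers (median r = -0.187) and 5 of 5 neutrophil markers (median r = -0.228), beside 12.8% of all genes. Other cell types did not share this: endothelial markers had 2 of 8 positive and 2 negative, and pancreas markers 1 of 7 positive. Hepatocyte markers had 3 of 7 positive and 0 negative, beside 14.1% of all genes positive. Stellate and lymphocyte markers had 1 negative each, and cholangiocyte, muscle and adipose markers 0 in either direction. The part of these cells in Mlxipl's relations was not tested. Nlrp6 (0.586), Midn (0.555), Cyp2d13 (0.542), Bicd2 (0.540), Zcchc14 (0.537) and Spred2 (0.519) were the most like Mlxipl, and Copb2 (-0.472), Xrcc4 (-0.458), Srxn1 (-0.429) and Arpc5 (-0.426) the most opposed.

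Slopes on 3 of the members differed between the sides of the gap for some cholesterol genes. The interaction passed for 8 of 16 genes on Mlxipl, beside 5.88% of all genes, for 6 on Srebf2, beside 0.769%, and for 5 on Stard4, beside 1.06%. On Srebf1 (background 0.835%) and Insig1 (0.763%) 0 of 16 passed. For Mlxipl, the median r with the list was -0.0411 above and -0.341 below the gap. For Srebf2 it was 0.345 above and 0.484 below, and for Stard4 0.457 and 0.704. Mlxipl and Stard4 themselves had r = 0.408 above and -0.233 below (interaction adjusted p = 1.46e-05). Srebf2 and Stard4 had -0.0753 above and 0.398 below (0.0103). Most of these calls were lost with few arrays: without the 15 least correlated ones the counts were 1 for Mlxipl, 0 for Srebf2 and 2 for Stard4, while the difference in slope of Mlxipl and Stard4 still passed (0.0109) and that of Srebf2 and Stard4 did not (0.115). These tests of fewer arrays were chosen after seeing the data.

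**Figure D4:**
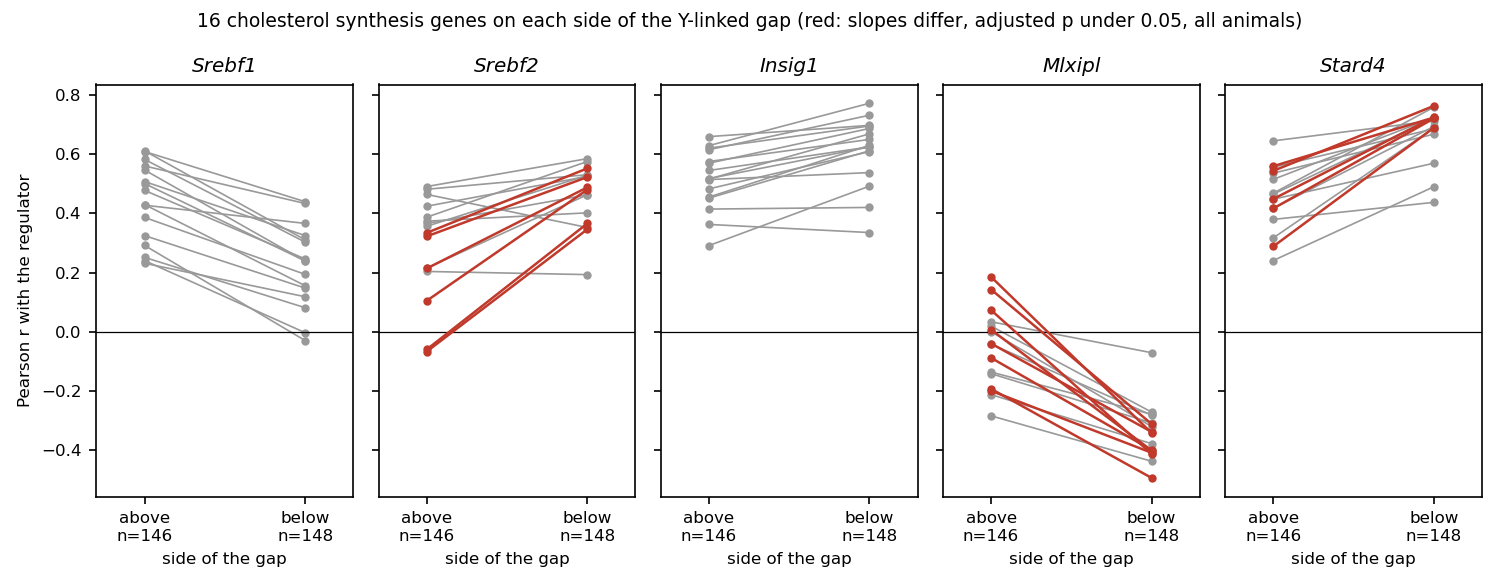
Pearson's r of each of 16 cholesterol synthesis genes with the regulator, above and below (n = 148) the Y-linked gap, with a line for each gene, red where the slopes differed (interaction adjusted p under 0.05, all animals). Median r on Mlxipl went from -0.0411 above to -0.341 below the gap, and on Stard4 from 0.457 to 0.704; without the 15 least correlated arrays only 1 and 2 genes passed.

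Genes beside a member on its chromosome were checked in the RefSeq order, with 5 measured genes on each side. Beside Srebf1 on chromosome 11, Pemt, a phosphatidylcholine-making enzyme, had r = 0.491 with it, Tom1l2 0.235 and Rai1 -0.164, which makes 3 of 10 called beside 31.1% of all genes. Beside Srebf2 on chromosome 15, Smdt1 (0.272) and Ccdc134 (0.162) were called, 2 of 10 beside 24.7%. On chromosome 5, Rbm33 (0.293) was the only one of 10 called beside Insig1, against 20.3% of all genes, and Baz1b (0.410) the only one beside Mlxipl, against 26.9%. Beside Stard4, Nrep (0.405) was the only one of 10, against 17.6%. These shares lie near or under those of all genes.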

How the data were processed

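Liver RNA from 294 F2 animals was measured on 1-colour oligonucleotide arrays. The deposited intensities are on a linear scale and come from RMA, per the submitters' processing notes; its version and settings are not given in the sources used here. Of 32640 probes, 25508 had 1 gene symbol and 7132 none. Symbols were updated through RefSeq tables (GRCm38.p6), with 13916 current, 2830 matched by synonym and 42 unmatched, which left 16643 genes; the brightest probe stood for a gene. Log2 was taken with no added constant and no further normalization. Each gene was fitted on a member's value and the side of the Y-linked gap in limma 3.58.1 (R 4.3.3), with Benjamini-Hochberg adjustment over all other genes at 0.05; the fit was tested on simulated data. The least correlated arrays lay over 3 median absolute deviations under the median correlation, and marker-high animals over 6 above the median of the marker mean. Permutations within sides used 100000 resamples (Python 3.11.15). Genes named are, in each list, up to 4 of highest and 2 of lowest r, the 6 most and 4 least like each member among genes above median brightness, and called neighbours; others were named after their values were seen. Members and lists were chosen with earlier results of these data known. The number of arrays limits the precision. Measured list genes were 16 of 20 for cholesterol synthesis, 18 of 19 for fatty acid synthesis and 11 of 12 for ChREBP targets; the other listed genes were not analysed here. In all, 465 relations of members and list genes were computed, where a gene on 2 lists, such as G6pc, counts once for each list.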

Additional observations from a re-analysis of the deposited data

Results flagged for a closer look

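For the 17 relations listed here the slope on a member differed between animals above and below the Y-linked gap. The test was an interaction term in limma with adjustment over all genes. Those listed are up to 4 list genes a member, by lowest p, and the called pairs of members, so more relations passed. Values are the slope above minus the slope below, in log2 units per log2 unit of the member. On Mlxipl, the differences were 2.02 for Thrsp, 1.58 for Nsdhl, 0.87 for Tm7sf2, 0.84 for Stard4 and -0.69 for Tm6sf2. Thrsp had r = 0.327 with Mlxipl above and -0.196 below the gap, and Tm6sf2 -0.273 above and 0.327 below. On Srebf2, the differences were -1.65 for Cyp51, -1.57 for Msmo1, -1.56 for Nsdhl, -0.86 for Tm7sf2 and -0.76 for Stard4. On Stard4, they were -1.70 for Sqle, -1.21 for Idi1, -1.10 for Msmo1 and -0.92 for Cyp51, with a positive r on both sides. On Srebf1, they were 0.86 for G6pc, -0.30 for Rnf145, a ubiquitin ligase of the SREBP pathway, and -0.22 for Abca1. Abca1 had r = -0.447 with Srebf1 above the gap and 0.0618 below it. All 17 listed relations kept their sign in 4 alternatives, which does not cover the relations not listed. With label block as a term 14 passed, after quantile normalization 17, without animals of high pancreas or muscle markers 14, and without the 15 least correlated arrays 4. Those 4 were Tm6sf2 and Stard4 on Mlxipl and Sqle and Msmo1 on Stard4.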

How the results depend on the processing

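Results were recomputed with no side term, with label block or the first principal component as a term, after quantile normalization, without the 15 least correlated arrays, without 39 animals high in pancreas or muscle markers, with the mean of all probes, on normal scores, for bright genes only, without the 2 farthest animals and on each side alone. Of the values that answer a comparison, 9 counts moved by over 1.5 times and 2 tests changed their call, as follows. With no side term, 4 ChREBP targets had a positive and 2 a negative slope on Mlxipl past the threshold, in place of 1 and 0. The negative ones were 2 without the least correlated arrays and above the gap alone, and 1 without pancreas- or muscle-high animals and without the 2 farthest. After quantile normalization the Srebf2 side difference was 0.0521 (adjusted p = 0.0290). Without the least correlated arrays the F over blocks was 1.84 for Srebf2. The alternatives for interactions and pairs were chosen after seeing the data. Cholesterol genes with an interaction were 2 on Srebf2 and 4 on Mlxipl with a block term, 0 on Srebf2, 1 on Mlxipl and 2 on Stard4 without the least correlated arrays, and 2 on Srebf2 without pancreas- or muscle-high animals. Pairs of members called were 5 without the least correlated arrays and 5 without pancreas- or muscle-high animals. Of the other values, 5 reversed: Stard4 on Srebf2 above the gap (slope -0.11, adjusted p = 0.576), Stard4 on Mlxipl below it (-0.33, 0.0304), Tm7sf2 on Srebf2 above it (-0.0905, 0.669), and Slc2a2 on Mlxipl without the least correlated arrays (-0.14, 0.0205) and without the 2 farthest animals (-0.14, 0.0415). The cause of these changes was not tested. No paired analysis was possible because the labels give 1 group. Signal over background was not analysed here.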

Other observations

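The liver lowest in Srebf1, at 8.21, lay above the gap in block 500, was among the least correlated arrays and was also lowest in Srebf2, at 5.97, while its Stard4 value was 9.80. The liver lowest in Insig1, at 7.501, lay below the gap in block 510 and was also among the least correlated arrays and high in pancreas markers.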
